A study of Mus musculus with 3 samples.

Results

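Imprinted genes were read by locus in 3 populations of mouse marrow cells. The 38 genes were taken from a list of known imprinted genes by symbol, all 38 had a row among the 23393 gene rows of the table, and they lie at 15 loci, of which 8 hold several listed genes and 7 hold 1. The cells came from the bone marrow of C57BL/6 mice and were sorted as LSK cells, which are lineage-negative, Sca-1+ and c-Kit+. Multipotent progenitors (MPPs) were CD48+ CD150- and are labelled Map17-GFP-, after Map17, an older name of the gene Pdzk1ip1. Hematopoietic stem cells (HSCs) were CD48- CD150+ and were divided into Map17-GFP- and Map17-GFP+ fractions. Each population was 1 library, and the labels used here state no age, sex or number of mice. With 1 library per population no difference can be set against a spread between replicates, so levels, ratios and counts past a 2-fold rule are given, without a test.

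An imprinted gene is transcribed mainly from the copy inherited from 1 parent. The choice is carried by DNA methylation laid down in the egg or the sperm at an imprinting control region, which acts over a whole cluster, often through a long non-coding RNA that silences its neighbours on the same chromosome. Many imprinted genes restrain or promote growth, are abundant in the fetus and fall after birth. A subset of them is known to remain expressed in adult stem cells, HSCs included, where the Igf2-H19, Dlk1-Meg3 and Cdkn1c loci have been studied as regulators of quiescence. The data here measure total RNA of a gene and do not distinguish the parental copies.

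The unit is the authors' normalized count per gene, called the level. After their scaling, the MPP library summed to 26689660, the GFP- HSC library to 25375047 and the GFP+ HSC library to 25311805, so the sequencing depth is unknown. The genes of the sort markers went the way of the gates: Slamf1, which encodes CD150, had a level of 17 in MPPs against 2144 (GFP-) and 2219 (GFP+) in the HSC fractions, and Cd48 at 7744, 168 and 64. Pdzk1ip1 itself stood at 290, 3673 and 5659. The 38 genes held 0.159% of the summed level of MPPs, against 0.204% (GFP-) and 0.214% (GFP+) for the HSC fractions. Levels are listed below in the order MPP, GFP- HSC, GFP+ HSC. In a sorted population, a lower share of expressing cells and less RNA per cell cannot be told apart.

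The promoters of the genes with the highest HSC to MPP ratios are shown first, with CpG dinucleotides marked because imprints are carried by methylation of their C. These stretches were chosen by transcript start and not as imprinting control regions, and no methylation was measured. Each sequence is the 250 bases before an annotated transcript start, from RefSeq on GRCm38.p6 (mm10), written 5′ to 3′ on the gene's strand, with every CpG in capitals.
Meg3, chr12:109540746-109540995 (plus strand): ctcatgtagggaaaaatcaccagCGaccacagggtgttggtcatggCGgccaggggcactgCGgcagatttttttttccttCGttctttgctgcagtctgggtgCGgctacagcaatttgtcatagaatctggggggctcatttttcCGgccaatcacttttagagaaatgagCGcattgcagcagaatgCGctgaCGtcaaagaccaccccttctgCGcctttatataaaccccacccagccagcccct
Ndn, chr7:62348027-62348276 (plus strand): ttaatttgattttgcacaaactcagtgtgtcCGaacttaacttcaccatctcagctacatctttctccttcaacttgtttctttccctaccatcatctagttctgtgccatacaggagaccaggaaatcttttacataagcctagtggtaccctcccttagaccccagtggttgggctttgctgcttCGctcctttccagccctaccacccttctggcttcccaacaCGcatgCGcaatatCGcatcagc
Grb10, chr11:12037421-12037670 (minus strand): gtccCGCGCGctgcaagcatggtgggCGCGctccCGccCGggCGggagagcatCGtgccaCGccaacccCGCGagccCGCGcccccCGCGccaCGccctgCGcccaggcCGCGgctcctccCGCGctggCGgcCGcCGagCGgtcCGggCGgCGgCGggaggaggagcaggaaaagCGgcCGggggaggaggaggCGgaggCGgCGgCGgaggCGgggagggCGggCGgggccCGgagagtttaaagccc
Grb10, chr11:12027972-12028221 (minus strand): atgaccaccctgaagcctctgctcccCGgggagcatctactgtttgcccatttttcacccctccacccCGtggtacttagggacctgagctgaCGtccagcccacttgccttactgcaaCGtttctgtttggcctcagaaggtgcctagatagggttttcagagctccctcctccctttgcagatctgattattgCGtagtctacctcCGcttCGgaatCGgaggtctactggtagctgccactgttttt
The upstream Grb10 window held 40 CpG and the one before its internal start 8, against 5 in the Ndn window. Meg3 has a second annotated start, and its window shown held 10 CpG while the other, at chr12:109545148-109545397, held 0. The median was 10 CpG over the 47 windows of 32 listed genes that had one, and 6.00 over all 32841 windows of the table. The 3 short motifs named next were searched on both strands. TGCCGC, the core bound by the imprint-protecting zinc finger protein ZFP57 when methylated, occurred in 7 of the 47 windows (14.9%) and in 8.68% of all windows, and the listed genes with it were Copg2, Meg3, Mest, Nap1l5, Plagl1 and Zim1. The cAMP response element TGACGTCA occurred in 2 of the 47 windows (4.26%), a Meg3 window, the one shown, where it began 57 bases before the start, and a Peg3 window, and in 1.55% of all windows. TATAAA occurred in 10 of the 47 windows (21.3%) and in 12.4% of all windows. In the Meg3 window shown it was found on both strands, overlapping, 29 and 25 bases before the start. Windows of 1 gene can overlap, and these matches describe letters only.

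Several of the listed genes also contain microRNAs. The maternal RNAs Meg3, Rian and Mirg span a long microRNA cluster, and H19 and Mest contain 1 microRNA hairpin each. Mature sequences from RefSeq (GRCm38.p6) are shown for H19, Mest and the cluster, with the seed, bases 2 to 8, in capitals. The host RNAs of the cluster had higher levels in HSCs than in MPPs, low ones for Rian and Mirg, while Mest was lower in HSCs. The first lie within H19, Mest, Meg3, Rian and Mirg, in this order, and the next pair on the strand opposite to Rtl1, whose RNA they can pair with.
mmu-miR-675-5p, chr7:142577112-142577133 (minus strand): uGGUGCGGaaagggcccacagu
mmu-miR-335-5p, chr6:30741314-30741336 (plus strand): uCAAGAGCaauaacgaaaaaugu
mmu-miR-770-5p, chr12:109563710-109563731 (plus strand): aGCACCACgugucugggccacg
mmu-miR-370-3p, chr12:109618305-109618326 (plus strand): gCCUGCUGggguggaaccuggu
mmu-miR-410-3p, chr12:109743764-109743784 (plus strand): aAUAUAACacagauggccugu
mmu-miR-127-3p, chr12:109592888-109592909 (plus strand): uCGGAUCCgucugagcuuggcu
mmu-miR-136-5p, chr12:109595331-109595352 (plus strand): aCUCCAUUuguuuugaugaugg
Between Dlk1 and Dio3 there were 113 mature microRNAs with 104 different seeds, and 9 seeds were shared by a pair. Shared seeds joined miR-379-5p with miR-1193-5p and miR-379-3p with miR-411-3p.
mmu-miR-379-5p, chr12:109709065-109709085 (plus strand): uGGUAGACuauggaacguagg
mmu-miR-1193-5p, chr12:109715716-109715735 (plus strand): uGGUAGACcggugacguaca
mmu-miR-379-3p, chr12:109709102-109709123 (plus strand): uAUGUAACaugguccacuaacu
mmu-miR-411-3p, chr12:109710225-109710246 (plus strand): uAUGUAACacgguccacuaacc
The table had 59 rows for microRNA genes in this span. Of these, 55 were listed at 0 in all libraries and the highest level of the other 4 was 7, for Mir544 in GFP- HSCs. Libraries of this kind do not capture mature microRNAs, so these rows say nothing of their amount.

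Most of the 38 listed genes, chosen with earlier results of these data known, were higher in both HSC fractions than in MPPs. Over all 38 genes, with no filter, the level was higher in GFP- HSCs than in MPPs for 27, lower for 5, and equal for 2 (Dio3 and Nap1l5, both listed at 0 in this pair), while 4 were listed at 0 in all 3 libraries. Over all 23393 rows the same counts were 8456, 7829, 576 and 6532. For GFP+ HSCs against MPPs, 30 genes were higher and 3 lower, against 8585 and 7682 of all rows. Both comparisons use the same MPP library. Ratios were taken as log2 of (level + 5) for the 22 genes with a mean of at least 50 over the 3 libraries. Of these 22, 13 lay 2-fold or more above MPPs in the GFP- fraction, beside 11.6% of all 11951 genes past the filter, and 0 lay 2-fold or more below, beside 5.53%. In the GFP+ fraction 15 of 22 lay 2-fold or more above MPPs, beside 13.7% of all genes, and 1, Copg2, lay as far below, beside 8.61%. The median log2 ratio was 1.08 and 1.27 in the 2 fractions, and -0.01 and 0.01 over all genes. Of the 22, 6 were under 50 in MPPs (Meg3, Airn, Asb4, Peg3, Mkrn3 and Phlda2) and passed the filter only through the HSC libraries, so at least 1 HSC level had to be higher. Among the 16 with at least 50 in MPPs, 8 lay 2-fold or more above MPPs in the GFP- fraction and 9 in the GFP+ fraction, beside 7.44% and 9.47% of all genes chosen in that way.

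**Figure D1:**
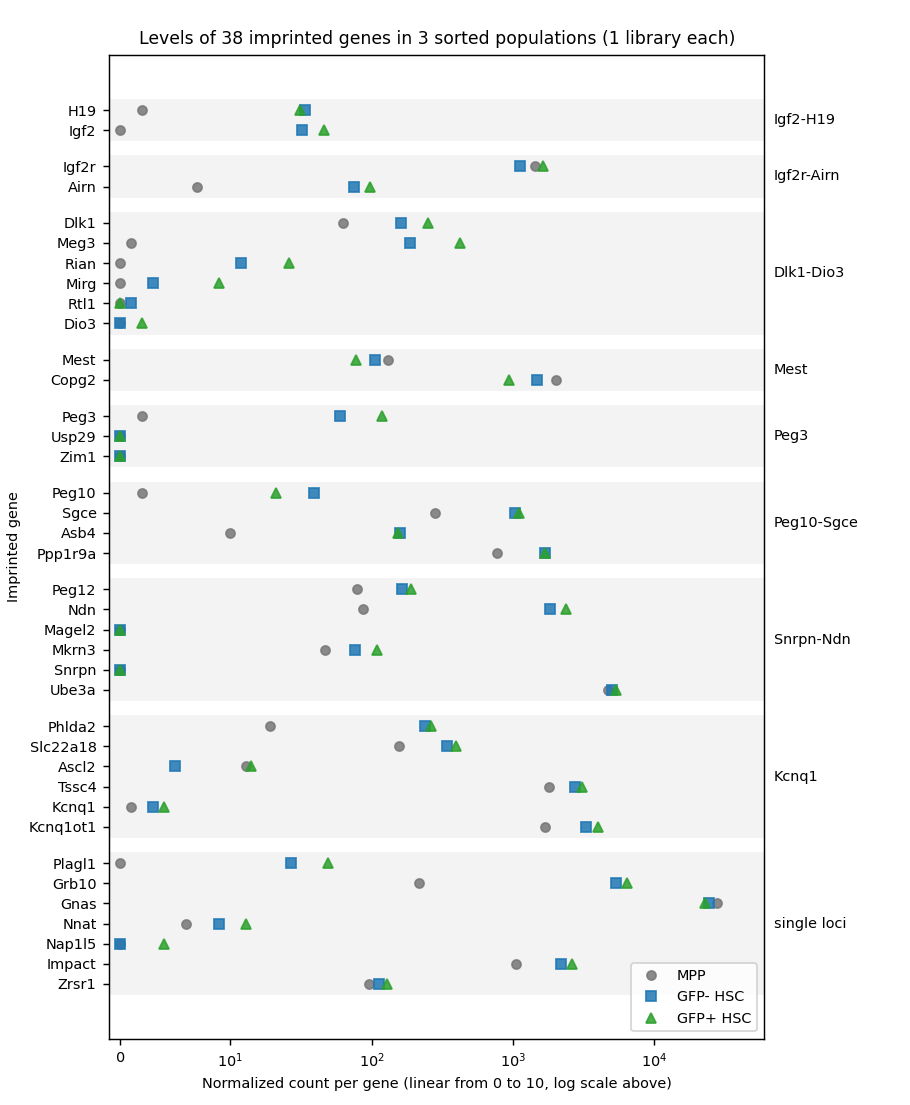
Normalized count of each of the 38 imprinted genes (rows, grouped by locus) in MPPs (grey circles), GFP- HSCs (blue squares) and GFP+ HSCs (green triangles), 1 library each, on an axis that is linear from 0 to 10 and logarithmic above. The grey points lie to the left of both HSC points for most genes, while Mest, Copg2 and Gnas have the grey point on the right.

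The Dlk1-Dio3 cluster on chromosome 12 held the gene with the highest ratio. Meg3 (109540996 to 109571729) is a maternally expressed long non-coding RNA, with a level of 1 in MPPs, against 188 (GFP-) and 421 (GFP+) in HSCs. The MPP library was far below both HSC libraries, and the GFP+ level of Meg3 was 2.24-fold the GFP- level. Its log2 ratios to MPPs of 5.01 and 6.15 ranked the 43rd and the 22nd highest of 11951, and ran from 3.31 to 6.56 and from 4.39 to 7.72 over the settings tried, since the MPP level is near 0. Rian and Mirg, which continue the same maternal transcription downstream, followed at low levels, at 0, 12 and 26 for Rian and at 0, 3 and 9 for Mirg. Dlk1 (109452485 to 109463336), the paternally expressed gene of a transmembrane protein with EGF-like repeats, stood at 63, 162 and 250, so that it was 2.57-fold and 3.97-fold higher in the HSC fractions than in MPPs and 1.54-fold higher in GFP+ than in GFP- HSCs. Its log2 ratio of 1.30 in the GFP- fraction was 0.83 with the lowess trend removed. The other paternal genes of the cluster were near 0: Rtl1, derived from a retrotransposon, was at 0, 1 and 0, and Dio3, a deiodinase that inactivates thyroid hormone, at 0, 0 and 2. Both sides of the cluster, the maternal Meg3 and the paternal Dlk1, were therefore higher in HSCs. Rtl1 overlaps Meg3 by 6830 bases on the other strand, and the library kit does not mark strand.

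Grb10, Ndn and their loci came next. Grb10 (chromosome 11, 11930499 to 12037428) encodes an adaptor that dampens signalling of the insulin and IGF1 receptors and is expressed from the maternal copy in most tissues. Its level was 215 in MPPs, against 5321 (GFP-) and 6355 (GFP+) in HSCs, which is 24.7-fold and 29.6-fold above MPPs. Per kilobase of its longest GENCODE transcript, Grb10 had a level of 1256 in GFP+ HSCs, the third among the 38 genes after Gnas (5751) and Tssc4 (1772), and of 42.5 in MPPs. Fignl1, a gene beside it, went the other way at 5393, 2746 and 1819. Ndn (chromosome 7, 62348277 to 62349928) encodes necdin, a growth-restraining protein of the MAGE family, and is expressed from the paternal copy. It stood at 87, 1836 and 2383, or 21.1-fold and 27.4-fold above MPPs.

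The other genes of the Snrpn-Ndn cluster, which corresponds to the Prader-Willi and Angelman region in people, had smaller ratios or levels of 0. Peg12, a relative of the GSK3-binding Frat proteins, stood at 79, 164 and 191, and Mkrn3, a zinc finger ubiquitin ligase gene, at 47, 76 and 110. Both were higher in HSCs than in MPPs, with log2 ratios of 1.01 and 0.64 in the GFP- and 1.22 and 1.15 in the GFP+ fraction. With the abundance trend removed by lowess these ratios were 0.57 and -0.06 in the GFP- and 0.81 and 0.54 in the GFP+ fraction, so that Mkrn3 turned in the GFP- fraction and neither gene was past 2-fold. Ube3a, a ubiquitin ligase gene that is imprinted in neurons and transcribed from both copies elsewhere, was near level at 4690, 4992 and 5374. Magel2, a MAGE gene that lies between Ndn and Mkrn3, was listed at 0 in all libraries. Snrpn was listed at 0 in all libraries too, as was Snurf, which shares 22705 bases of its locus on the same strand. How reads were counted where rows overlap is not stated, so these entries of 0 are given as listed and are not read as absence of RNA.

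The Peg10-Sgce cluster on chromosome 6 was higher in HSCs in all 4 listed genes. Sgce (4674350 to 4747204), the paternally expressed gene of epsilon-sarcoglycan, stood at 282, 1031 and 1110, or 3.66-fold and 3.94-fold above MPPs. Peg10, a retrotransposon-derived gene that starts 101 bases from Sgce on the other strand, stood at 2, 39 and 21, under the filter. Asb4, an ankyrin repeat and SOCS box gene with maternal expression, stood at 10, 158 and 153 (15.8-fold and 15.3-fold), and Ppp1r9a, which encodes the actin-binding protein neurabin, at 769, 1684 and 1690 (2.19-fold and 2.20-fold). Between the HSC fractions the log2 ratios of Sgce, Asb4 and Ppp1r9a were 0.11, -0.04 and 0.01. Other genes of the region were mixed. Pdk4, a mitochondrial kinase gene reported as imprinted, stood at 3, 144 and 176, and Col1a2, a collagen gene outside the listed genes, at 28, 457 and 679, while Casd1, Pon2 and Pon3 had log2 ratios of 0.46, 0.09 and 0.56 for GFP- HSCs against MPPs.

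**Figure D2:**
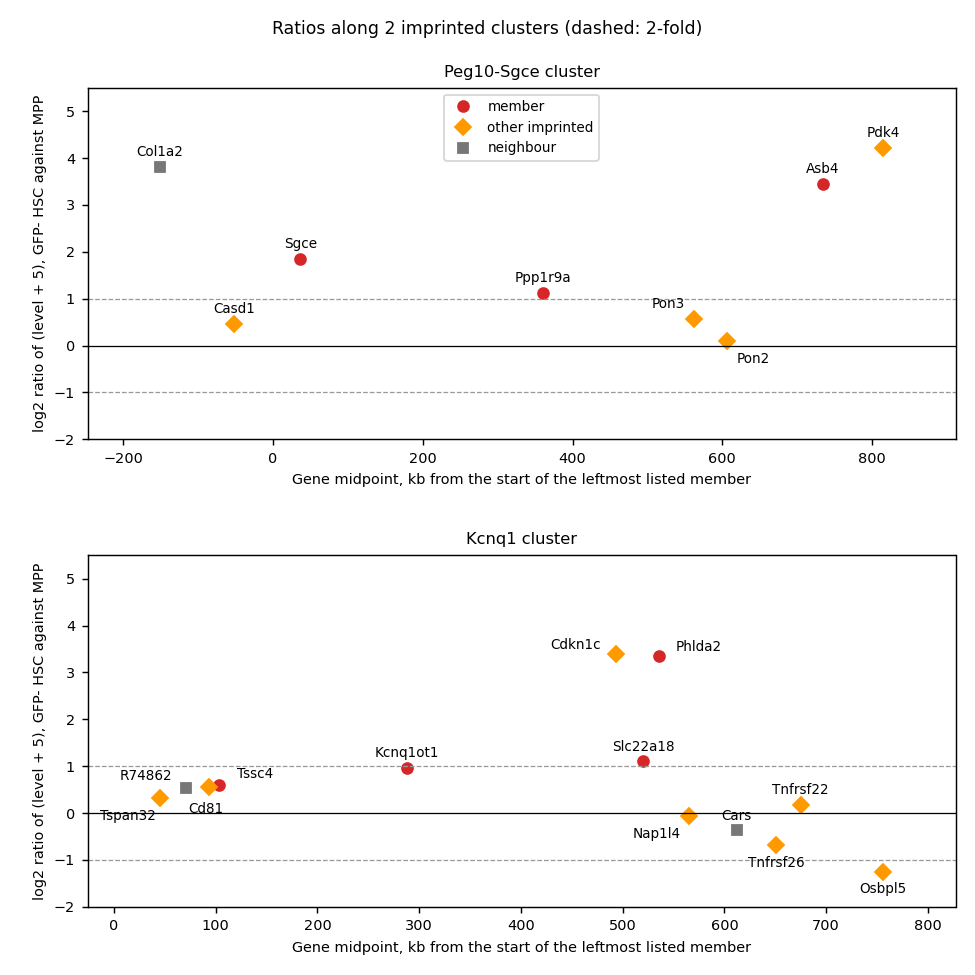
Log2 ratio of (level + 5), GFP- HSCs against MPPs, of each gene with a mean of at least 50 along the Peg10-Sgce and Kcnq1 clusters, by the distance of its midpoint in kb from the start of the leftmost listed gene. Red circles are listed genes, orange diamonds other imprinted genes and grey squares further genes within 250 kb. High ratios stand beside ratios near 0 within each cluster.

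At the Kcnq1 cluster on distal chromosome 7, all 4 listed genes past the filter were higher in HSCs, by unequal amounts. Among them Phlda2, under 50 in MPPs, passed only through the HSC libraries, so at least 1 of its HSC levels had to be higher. Phlda2 (143501545 to 143503145), a maternally expressed gene that restrains growth of the placenta, stood at 19, 239 and 264 (12.6-fold and 13.9-fold above MPPs). Kcnq1ot1 (143213111 to 143296547), the paternal long non-coding RNA that silences the maternal genes of this cluster on its own chromosome, stood at 1676, 3291 and 3976 (1.96-fold and 2.37-fold). Slc22a18, a transporter gene, stood at 156, 341 and 393 (2.19-fold and 2.52-fold), and Tssc4 at 1797, 2725 and 3075 (1.52-fold and 1.71-fold). In the GFP- fraction Kcnq1ot1 and Slc22a18 lay close to the 2-fold line, and over the settings tried their log2 ratios ran from 0.97 to 1.08 and from 0.89 to 1.21. Cdkn1c, the maternally expressed gene of the cell cycle inhibitor p57 in the same cluster, stood at 181, 1951 and 2792, with log2 ratios of 3.39 and 3.91. Kcnq1ot1, Phlda2, Slc22a18 and Cdkn1c were thus higher in the same libraries, which did not hold for every gene of the cluster. Kcnq1, the potassium channel gene whose body holds Kcnq1ot1 on the other strand, stood at 1, 3 and 4, and Ascl2, a basic helix-loop-helix factor of the placenta, at 13, 5 and 14. At the far edge of the cluster Osbpl5 was lower in HSCs, at 1100, 461 and 696.

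The Igf2-H19 cluster next to it was low in all libraries but not evenly so. H19 (142575530 to 142578146), a maternal non-coding RNA, stood at 2, 34 and 31, and Igf2 (142650768 to 142666816), the paternally expressed fetal growth factor gene, at 0, 32 and 46. Both were under the filter and have no ratio, and both were higher in each HSC library than in MPPs. Igf2r (chromosome 17, 12682406 to 12769706), whose product carries IGF2 to the lysosome, stood at 1441, 1127 and 1638. Its log2 ratios to MPPs were -0.35 (GFP-) and 0.18 (GFP+), and that between the HSC fractions was 0.54. Airn, the paternal non-coding RNA that silences Igf2r in cis, stood at 7, 75 and 98, with log2 ratios of 2.74 and 3.10 to MPPs, which ran from 1.81 to 3.25 and from 2.13 to 3.63 over the settings tried. They overlap by 28396 bases on opposite strands, and reads in that stretch cannot be assigned by strand, so the part of Igf2r reads in the Airn level was not tested. Plagl1, a zinc finger factor known to regulate several of these genes, stood at 0, 27 and 49, also under the filter.

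At the Peg3 locus on chromosome 7, Peg3, a zinc finger gene, stood at 2, 60 and 119, and its log2 ratio between the HSC fractions was 0.93. Usp29, which starts 96 bases from Peg3 on the other strand, and Zim1 were listed at 0 in all libraries. At the Mest locus both genes were lower in HSCs. Mest, which encodes a hydrolase-like protein, stood at 130, 105 and 78, and Copg2, a coatomer subunit gene that meets it tail to tail, at 2001, 1473 and 940. Against MPPs, Copg2 was 1.36-fold (GFP-) and 2.13-fold (GFP+) lower. Its GFP+ log2 ratio of -1.09 was -0.99 after scaling to the upper quartile. That of Mest was -0.70, and -1.20 with the lowess trend removed. The 2 genes overlap by 913 bases on opposite strands. Of the single loci, Impact, a gene that limits the GCN2 stress kinase, stood at 1051, 2200 and 2618 (2.09-fold and 2.49-fold). Gnas, which encodes the stimulatory G protein alpha subunit, was the most abundant of the 38 per kilobase in each library and stood at 27775, 24331 and 22698. Zrsr1, a splicing factor gene within an intron of Commd1, stood at 96, 113 and 128 and had log2 ratios to MPPs below 0 with the lowess trend removed (-0.27 and -0.08). Nnat stood at 6, 9 and 13 and Nap1l5 at 0, 0 and 4. Zrsr1 lies wholly within Commd1, Nnat within Blcap and Nap1l5 within Herc3, each on the strand opposite to its host.

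**Figure D3:**
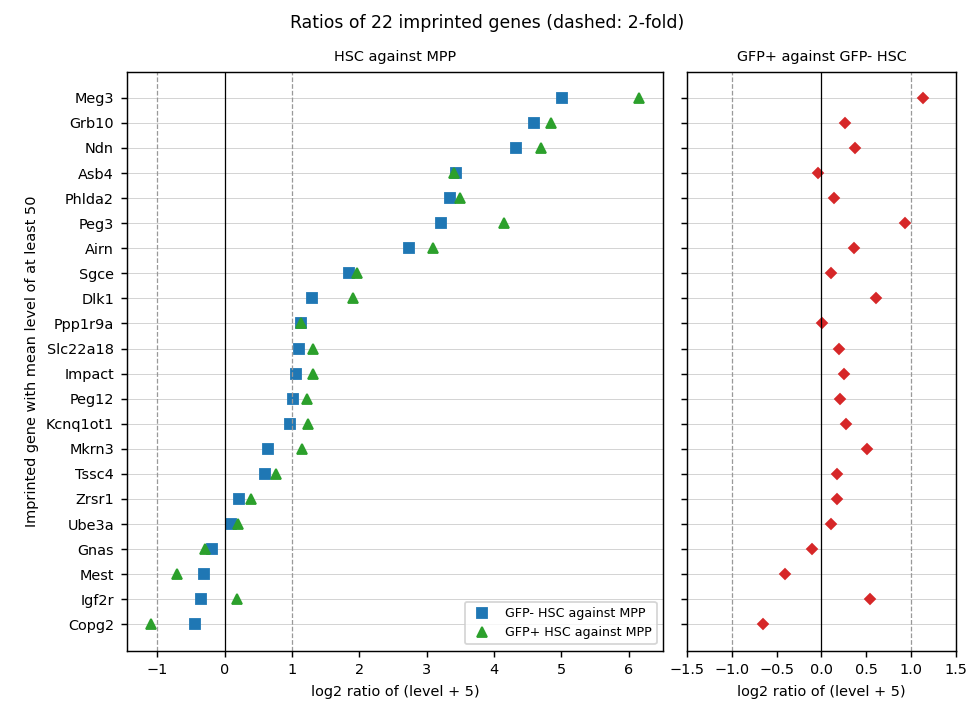
Log2 ratio of (level + 5) of the 22 imprinted genes with a mean of at least 50, for GFP- HSCs (blue squares) and GFP+ HSCs (green triangles) against MPPs on the left and for GFP+ against GFP- HSCs on the right, with dashed lines at 2-fold. Ratios to MPPs run from -1.09 for Copg2 to 6.15 for Meg3, and those between the fractions from -0.65 to 1.14.

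Between the HSC fractions the ratios were smaller. Of the 22 genes, 1, Meg3, lay 2-fold or more above the GFP- level in GFP+ HSCs, beside 0.410% of all genes, and 0 lay as far below, beside 0.870%. The median log2 ratio was 0.21, against 0.01 over all genes, and 18 of the 22 were higher and 4 lower in GFP+ HSCs, beside 6183 and 5714 of all 11951 genes. The split was 17 and 5 after scaling to the upper quartile or removing the lowess trend, where Ppp1r9a turned. After Meg3 came Peg3 (0.93), Dlk1 (0.61), Igf2r (0.54) and Mkrn3 (0.51), and the 4 that were lower were Copg2 (-0.65), Mest (-0.41), Gnas (-0.10) and Asb4 (-0.04). Below the filter, Igf2, Rian, Mirg, Plagl1, Ascl2, Nnat, Nap1l5, Dio3 and Kcnq1 had higher levels in the GFP+ fraction. Lower there were Peg10, Rtl1 and H19, the last at 34 in GFP- and 31 in GFP+ HSCs. These low levels carry no interval.

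**Figure D4:**
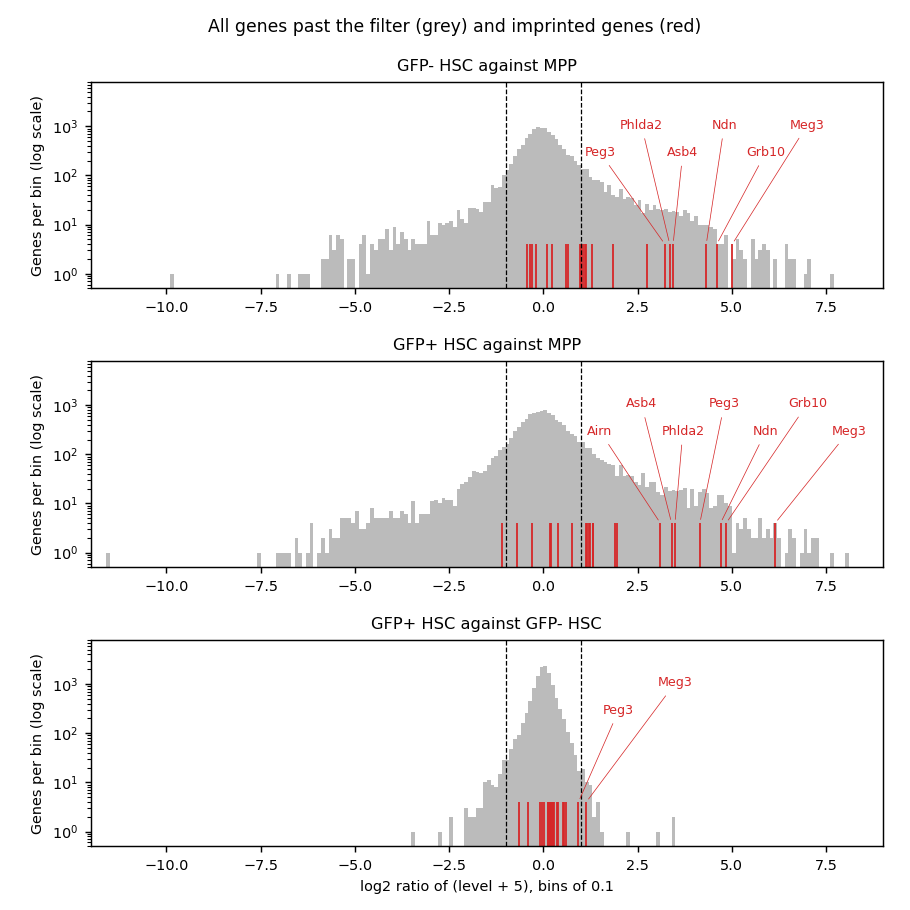
Distribution of the log2 ratio of (level + 5) over all 11951 genes past the filter (grey, bins of 0.1, log count axis) with the 22 imprinted genes as red lines, in the 3 comparisons, and dashed lines at 2-fold. In the upper panels red lines reach from -0.44 (GFP- HSCs against MPPs) and -1.09 (GFP+ HSCs against MPPs) far into the upper tail. In the lowest panel they lie between -0.65 and 1.14.

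Genes of either parental copy were among those higher in HSCs. Of 7 maternally expressed genes past the filter, 5 lay 2-fold or more above MPPs in the GFP- fraction, with a median log2 ratio of 1.13, and of 11 paternally expressed genes 7 did, with a median of 1.06. Of these, 3 maternal genes (Meg3, Asb4 and Phlda2) and 3 paternal ones (Airn, Peg3 and Mkrn3) were under 50 in MPPs and passed only through HSCs. Without them 2 of 4 maternal genes (median 0.85) and 5 of 8 paternal genes (median 1.04) lay 2-fold or more above MPPs, beside 7.44% of all genes with at least 50 in MPPs. The 4 genes with tissue-dependent imprinting, Grb10, Gnas, Ube3a and Copg2, ranged from -0.44 to 4.60. Genes nearby were counted as well. Of 187 further genes within 250 kb of these loci, 48 passed the filter, and in the GFP- fraction 7 of them (14.6%) lay 2-fold or more above MPPs and 3 (6.25%) as far below. The shares of all genes were 11.6% and 5.53%. Of the 48, 3 (Col1a2, Tubb1 and Fam161a) were under 50 in MPPs and passed only through the HSC libraries. All 3 were among the 7, while C030013G03Rik, among the 3 lower, passed only through MPPs. In GFP+ HSCs against MPPs the counts were 5 and 5 (10.4% each), beside 13.7% and 8.61% of all genes. Farthest among these neighbours were C030013G03Rik beside Igf2r (182, 7 and 1), Col1a2, and Ttc39c beside Impact (351, 90 and 57).

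Further imprinted genes were read from a second list. Of 56 further imprinted genes in the table, 32 passed the filter, and in the GFP- fraction 5 (15.6%) lay 2-fold or more above MPPs and 1 (3.12%) as far below, with a median of 0.24, beside 11.6% and 5.53% of all genes. In the GFP+ fraction the counts were 6 (18.8%) and 2 (6.25%), beside 13.7% and 8.61%, so these shares were near those of all genes. Among the genes counted as higher, Pdk4 and Htr2a were under 50 in MPPs and passed the filter only through the HSC libraries. Beside Pdk4 and Cdkn1c, the serotonin receptor gene Htr2a (44, 516 and 671), the AMP deaminase gene Ampd3 (372, 999 and 1600), Begain (62, 178 and 214), which lies upstream of Dlk1, and Mcts2 (71, 127 and 182) were higher in HSCs. Gatm, an enzyme gene of creatine synthesis, was lower at 3545, 2043 and 1704, as was the organic cation transporter gene Slc22a3 in the GFP+ fraction at 2825, 2472 and 1369.

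In the insulin-like growth factor pathway, through which several imprinted genes act, 18 of 26 genes in the table passed the filter, and in the GFP- fraction 4 (22.2%) lay 2-fold or more above MPPs and 2 (11.1%) as far below, beside 11.6% and 5.53% of all genes. Igf1, the ligand gene that is not imprinted, stood at 21, 254 and 370. It is 1 of the 4 and passed the filter only through the HSC libraries. The receptor gene Insr stood at 746, 1564 and 1828 and the receptor substrate gene Irs2 at 1688, 3255 and 3584. Foxo1, a factor that the pathway inhibits, stood at 792, 1803 and 2419. The RNA-binding protein gene Igf2bp2 stood at 74, 703 and 1602, with a log2 ratio of 1.18 between the HSC fractions. Of the binding protein genes, Igfbp4 and Igfbp7 passed the filter and were lower in HSCs, with Igfbp4 at 22440, 6866 and 5988 and Igfbp7 at 421, 65 and 40. The others were under the filter, the highest being Igfbp5 at 2, 27 and 0.

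Of 23 genes that set or keep imprints, 18 passed the filter. Their median log2 ratio was -0.22 for GFP- HSCs and -0.33 for GFP+ HSCs against MPPs, beside -0.01 and 0.01 over all genes. Zfp57, which recognises methylated control regions, was the 1 gene of the 18 (5.56%) at least 2-fold higher in HSCs, beside 11.6% and 13.7% of all genes, at 55, 214 and 240. At least 2-fold lower were 1 gene (5.56%) in the GFP- fraction, Uhrf1, and 2 (11.1%) in the GFP+ fraction, Uhrf1 and Hells. These shares were near the 5.53% and 8.61% of all genes. Uhrf1, which brings the maintenance methyltransferase to replicating DNA, stood at 8051, 3863 and 2748, and the chromatin remodeller gene Hells at 4116, 2181 and 1604. These 2 are also genes of dividing cells. The 6 proliferation markers summed to 58842, 28592 and 18251, and all 6 were lower in both HSC fractions than in MPPs. The part of cell division in the levels of Uhrf1 and Hells was not tested.

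Markers of other cells were set beside these values. Stromal cells express many imprinted genes, and of 12 stromal and mesenchymal markers 3 were higher in both HSC fractions than in MPPs and 2 lower in both. Their summed level was 2797, 1397 and 1559, and was made up in MPPs mostly of Pdgfrb at 2472. Of the defining markers, Col3a1 stood at 2, 5 and 0, Lepr at 0, 10 and 0 and Dcn at 1, 3 and 0, whereas Col1a2 stood at 28, 457 and 679, Col1a1 at 17, 22 and 294 and Cxcl12 at 66, 187 and 29. Col1a2, which also lies within 250 kb of the Peg10-Sgce cluster, was higher in both HSC fractions, and Cxcl12 was highest in the GFP- fraction. Postn (117, 3 and 11) and Pdgfrb (2472, 589 and 503) were lower in both, and Sparc stood at 94, 108 and 33. Endothelial markers summed to 6250, 11362 and 13407, made up in the HSC fractions mostly of Tie1 (1665, 7832 and 9696). Of the 6, 4 were higher in both HSC fractions, among them Tie1 and Kdr (18, 444 and 713). Pecam1 was the 1 marker lower in both, at 4053, 2304 and 2098, and Cdh5 was at 10, 10 and 3. The part of these cells and of cell division in the imprinted gene levels was not tested.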

How the data were processed

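RNA of 3 sorted populations was measured, 1 library each. The kit, Clontech SMART-seq v4 per the labels' protocols, does not mark strand. The authors deposited 1 table of normalized counts per gene as whole numbers, treated here as a score. The submitters' processing notes name mm10, STAR and DESeq2; the sources used here give no version, annotation or counter. Depth is unknown, so no counting interval was made.

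Of 23420 rows, 27 with a date for a symbol (0.212% of the summed levels) were left out. Ratios were log2 of (level + 5) for genes with a mean of at least 50, 11951 in number; folds of single genes are ratios of levels, and none is given where the MPP level is under 5. No test was made. The genes and lists were chosen with earlier results of these data known. All 38 genes are given; from other lists, genes with a mean of at least 50 and 2-fold apart in any comparison, at most 8 a list, could be named, and some others were named after their values were seen. Positions come from RefSeq GRCm38.p6, to which all 38 symbols matched, and strands and lengths from GENCODE M21. As alternatives, the pseudocount was set to 1 or 20 and the minimum mean to 10 or 200, libraries were brought to 1 total or 1 upper quartile, and a lowess trend over abundance was subtracted. A filter of 50 in the library compared against was added after the data were seen. The calculation was tested on simulated data. Python 3.11.15, numpy 2.4.6, pandas 2.3.3, statsmodels 0.14.6 and matplotlib 3.10.9 were used.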

Additional observations from a re-analysis of the deposited data

How the results depend on the processing

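No paired analysis was possible because each population has 1 library, and no library could be left out. With pseudocounts of 1 and 20 the median log2 ratio of the imprinted genes was 1.09 and 1.04 for GFP- HSCs against MPPs and 1.29 and 1.23 for GFP+ HSCs against MPPs, and with 20 it was 0.20 between the HSC fractions. A minimum mean of 10 gave medians of 1.21, 1.60 and 0.23 in the 3 comparisons. A minimum mean of 200 gave 1.06, 1.24 and 0.20, with 7 and 8 genes at least 2-fold higher than in MPPs, of fewer genes. Rescaling to the same total gave 1.15 and 1.35 against MPPs. Rescaling to the same upper quartile gave 1.19, 1.37 and 0.20, moved the median of all genes against MPPs to 0.10 and 0.11, and left 0 genes at least 2-fold lower in GFP+ HSCs, with Copg2 at -0.99. Removing the lowess trend gave 0.97, 1.23 and 0.18, with 2 genes at least 2-fold lower in GFP+ HSCs, Copg2 and Mest (-1.20). Requiring a level of 50 in the library compared against, added after the data were seen, gave 0.99 and 1.18 against MPPs, with 8 and 9 genes higher. Near the 2-fold line, Peg12, Mkrn3, Dlk1, Slc22a18 and Kcnq1ot1 changed sides against MPPs in at least 1 setting. Mkrn3 (-0.06 in GFP- HSCs) and Zrsr1 (-0.27 and -0.08) changed sign when the lowess trend was removed. The depth behind the levels is unknown, so levels near 0 carry no interval.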
